A study of Mus musculus with 20 samples.

Results

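Guanylate-binding proteins are large GTPases that interferons induce in macrophages. The genes described here are Gbp2, Gbp3, Gbp4, Gbp5, Gbp6, Gbp7, Gbp8 and Gbp9, taken by symbol from a table of 22165 mouse genes. The table holds 3 more genes named as family members, Gbp2b, Gbp10 and Gbp11, which are compared only in the closing observations. All 8 passed the filter on low counts.

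Transcripts were counted in bone marrow-derived macrophages of wild-type C57BL/6 mice, grown from marrow for 7 days with macrophage colony-stimulating factor. The DI cells were given 250 µM dimethyl itaconate, a membrane-permeable ester of itaconate, for 12 h, and were then left unstimulated (0 h) or exposed to lipopolysaccharide (LPS) with interferon gamma (IFNg) for 1, 2, 4 or 6 h. The Ctrl cells had the same stimulus and times without dimethyl itaconate. This makes 10 groups of 2 libraries, and every stimulated group received LPS and IFNg together, so that the 2 agents cannot be told apart. The labels do not say whether the 2 libraries of a group came from separate cultures or animals, nor how many animals gave marrow, so p-values measure only the spread between these libraries.

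IFNg binds a receptor that works through Janus kinases. Transcription factors switched on by this pathway, the interferon regulatory factor IRF1 among them, drive the guanylate-binding protein genes through GAS and ISRE elements. LPS adds to this through TLR4, interferon beta and NF-kB. The proteins gather on vacuoles and on the surface of bacteria inside macrophages, where they act with the immunity-related GTPases, and they help expose LPS and DNA to inflammasomes.

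The libraries held 3982073 to 6725447 reads in DI and 3655977 to 8938983 in Ctrl. There were 333 to 674 genes with 1 to 3 reads in a DI library and 1370 to 1741 in a Ctrl library. A DI library left 11143 to 12356 genes without a read, and a Ctrl library 9301 to 10859. The median coefficient of variation between the libraries of a group was 18.7% in DI and 12% in Ctrl, and for the 8 genes it was 19.6% in DI and 10.5% in Ctrl. The part of these differences in the results was not tested. All 8 macrophage markers had reads, with a summed level of 2620.4 to 4382 CPM in DI and 3246 to 4757 CPM in Ctrl. The mean over libraries was lower in DI for 6 of the 8, among them Cd14 (38.3 CPM in DI and 129 CPM in Ctrl), Itgam (145 CPM in DI and 334 CPM in Ctrl) and Fcgr1 (340 CPM in DI and 651 CPM in Ctrl), and higher in DI for Lyz2 (1490 CPM in DI and 1280 CPM in Ctrl), which gave the most to the sum. The part of these markers in the results was not tested. The T or NK cell markers Cd3e and Ncr1 were at 0 in every library, and the 6 markers of that list summed to 0 to 1.13 CPM in DI and 0 to 2.17 CPM in Ctrl. The 6 neutrophil markers summed to 254 to 514 CPM in DI and 239 to 593 CPM in Ctrl, nearly all of it from S100a8 and S100a9. The 4 stromal cell markers, all of which had reads, summed to 5.3 to 39.5 CPM in DI and 38.1 to 68 CPM in Ctrl. These ranges overlapped little, and the part of these transcripts in the results was not tested. The 5 dendritic cell markers summed to 0 to 8.79 CPM in DI and 2.86 to 9.03 CPM in Ctrl, and the 4 B cell markers to 0 to 3.42 CPM in DI and 1.11 to 6.23 CPM in Ctrl. In such bulk libraries fewer cells of a type and less RNA per cell cannot be told apart. As a check of the treatment, all 7 listed targets of NRF2, the oxidative stress factor that dimethyl itaconate activates, were higher in DI at 0 h. Gclm, a subunit of the enzyme for glutathione synthesis, had 1544 and 1725 CPM in DI libraries against 132 and 142 CPM in Ctrl libraries at that time, and Nqo1, a quinone reductase, had 39.2 and 17.3 CPM in DI libraries against 1.6 and 1.11 CPM in Ctrl libraries.

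The genes lie in 2 clusters. Gbp2, Gbp3, Gbp5 and Gbp7 span 144 kb of the plus strand on chr3:142493978-142638008, and Gbp4, Gbp6, Gbp8 and Gbp9 span 280 kb of the minus strand on chr5:105014150-105293698, in build GRCm38 with GENCODE M21 gene models. All are annotated as protein coding. Family members resemble each other, and the libraries read the 3′ ends of transcripts, so the last 500 bases of each annotated transcript were compared with all other genes in windows of 50 bases. For Gbp6, 77.8% of the windows also occur in Gbp10, Gbp9 or the gene model Gm43302, and 29% of its exon bases lie in Gm43302 on the same strand, so its counts are uncertain. The share was 19.4% for Gbp4, 7.32% for Gbp8, 3.77% for Gbp9, 3.25% for Gbp3 and 1.62% for Gbp5. It was 0% for Gbp2 and Gbp7, but 11.3% of the exon bases of Gbp7 lie in the gene model Gm43802. Gbp4, Gbp8 and Gbp9 share 60 or 61 exon bases with each other.

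RefSeq promoter windows, from 250 bases before to 50 bases after a transcript start in build GRCm38.p6, were given for 4 of the 8 genes. They are shown for matches to motifs that interferon factors read, and a link between such matches and the response to the stimulus was not tested. The first start of each gene is printed 5′ to 3′ on the plus strand, with matches to the ISRE-type motif, which is GAAA, any 2 bases and GAAA again, on either strand, in capitals. Gbp5 lies at chr3:142496684-142496983, Gbp7 at chr3:142530086-142530385, Gbp3 at chr3:142559794-142560093 and Gbp2 at chr3:142620413-142620712.
Gbp5: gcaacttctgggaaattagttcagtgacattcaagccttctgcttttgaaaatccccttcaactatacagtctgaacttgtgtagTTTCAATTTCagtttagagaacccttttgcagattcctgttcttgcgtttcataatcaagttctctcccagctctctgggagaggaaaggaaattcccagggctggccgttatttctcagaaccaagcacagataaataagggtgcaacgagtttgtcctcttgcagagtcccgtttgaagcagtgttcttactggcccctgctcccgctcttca
Gbp7: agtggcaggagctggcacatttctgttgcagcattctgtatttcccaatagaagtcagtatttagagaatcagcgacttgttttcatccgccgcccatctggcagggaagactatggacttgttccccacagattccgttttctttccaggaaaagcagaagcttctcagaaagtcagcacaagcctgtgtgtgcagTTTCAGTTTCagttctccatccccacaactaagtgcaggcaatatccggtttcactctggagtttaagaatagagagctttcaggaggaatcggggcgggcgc
Gbp3: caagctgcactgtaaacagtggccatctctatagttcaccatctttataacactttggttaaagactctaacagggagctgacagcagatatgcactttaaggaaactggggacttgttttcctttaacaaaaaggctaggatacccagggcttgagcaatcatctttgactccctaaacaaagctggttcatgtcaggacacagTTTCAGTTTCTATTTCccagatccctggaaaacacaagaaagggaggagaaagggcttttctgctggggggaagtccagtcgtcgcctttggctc
Gbp2: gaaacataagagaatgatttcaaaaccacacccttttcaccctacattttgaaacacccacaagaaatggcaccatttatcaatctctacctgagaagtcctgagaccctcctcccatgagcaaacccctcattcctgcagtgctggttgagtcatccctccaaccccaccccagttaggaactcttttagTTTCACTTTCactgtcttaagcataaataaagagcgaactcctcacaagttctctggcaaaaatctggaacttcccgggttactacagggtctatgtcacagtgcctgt

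Each of these 4 windows held the ISRE-type motif, which occurs in 3.44% of 32851 RefSeq promoter windows of the same length. Counted from the transcript start, it lay at −59 to −50 in Gbp2, at −53 to −44 in Gbp7 and at −165 to −156 in Gbp5. Gbp3 held 2 matches that overlap each other, at −45 to −36 and at −39 to −30. A second RefSeq start of Gbp3 had no match to it. The GAS-type motif TTCNNNGAA, found in 8.3% of promoters, had 2 matches in Gbp5 and 2 in Gbp7. The NF-kB-type motif, which is GGGA, any 2 bases and TTCC, was also searched on both strands. It was found in 1.47% of promoters and had 1 match in Gbp5 before the start and 1 in Gbp2 after it. No match to one motif overlapped a match to another. These are matches of letters, and binding was not measured here.

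**Figure D1:**
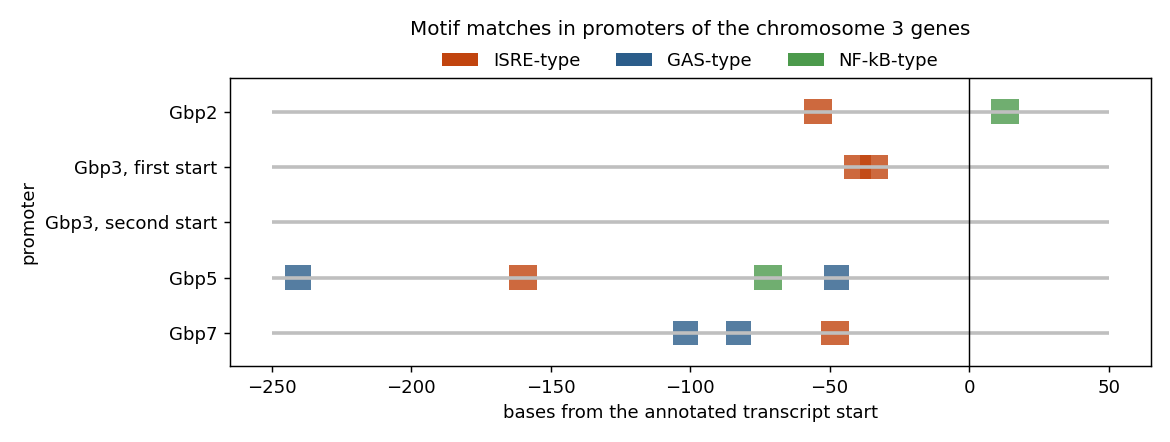
Positions of motif matches in the 5 RefSeq promoter windows of Gbp2, Gbp3, Gbp5 and Gbp7, in bases from the annotated transcript start (vertical line), with 1 row per start and colours for the ISRE-type, GAS-type and NF-kB-type motifs on either strand. The ISRE-type matches of Gbp2, Gbp7 and the first start of Gbp3 lie close before the start, and that of Gbp5 lies at −165 to −156.

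The first comparison asks what 12 h of dimethyl itaconate did to the genes in unstimulated macrophages. Levels are given as CPM, which are counts made relative to library size, scaled by trimmed means of M values. A gene counts as called where edgeR's quasi-likelihood test gave an adjusted p under 0.05, adjusted over all 10663 genes tested. At 0 h 4 of the 8 genes were lower in DI and 0 were higher, where 2.17% of all genes tested were called lower and 1.43% higher. The median log2 fold change of the 8 genes was −1.77, beside −0.05 over all genes.

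Gbp7, which in mouse macrophages helps assemble the phagocyte oxidase on phagosomes, had 60.6 and 70.5 CPM in DI libraries against 244 and 229 CPM in Ctrl libraries. Both DI libraries lay far below both Ctrl libraries, with a log2 fold change of −1.85 ± 0.26 (SE; adjusted p = 5.12e-05). Gbp4 had 4.95 and 2.77 CPM in DI libraries against 19 and 18.6 CPM in Ctrl libraries, without overlap (−2.32 ± 0.35, adjusted p = 0.00014). Gbp5, a prenylated protein tied to NLRP3 and AIM2 inflammasomes, had 3.18 and 7.49 CPM in DI libraries against 19 and 20.3 CPM in Ctrl libraries. Its DI libraries differed from each other by more than its Ctrl libraries did, and both were lower (−1.83 ± 0.39, adjusted p = 0.00501). Gbp8 had 2.65 and 3.46 CPM in DI libraries against 11.9 and 12.1 CPM in Ctrl libraries, again without overlap, from 15 and 30 reads in DI libraries and 149 and 120 reads in Ctrl libraries (−1.95 ± 0.42, adjusted p = 0.0054).

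The other 4 genes did not pass the threshold at 0 h. Gbp2, a prenylated protein of pathogen vacuoles, had 124 and 120.1 CPM in DI libraries against 238 and 183 CPM in Ctrl libraries (−0.78 ± 0.26, adjusted p = 0.099). Gbp3, Gbp6 and Gbp9, which in mouse cells also gather on vacuoles of Toxoplasma gondii, differed by −1.25 ± 0.38, −1.70 ± 0.70 and −0.83 ± 0.44 on the log2 scale. In each of these 4 genes the DI libraries lay below the Ctrl libraries without overlap, as did those of 26.7% of all genes tested at 0 h. DESeq2 called 2 of the 4 lower, Gbp2 (adjusted p = 0.03) and Gbp3 (adjusted p = 0.03). Without replicate 1 of DI at 0 h, 2 genes were called, Gbp4 and Gbp7, while Gbp5 was at −1.40 (adjusted p = 0.0995) and Gbp8 at −1.80 (adjusted p = 0.0669). In a fit of the 2 groups alone 1 gene, Gbp7, was called. The call of Gbp5 was also lost with limma-voom (adjusted p = 0.0724) and with its quality weights (adjusted p = 0.221), and that of Gbp8 with the quality weights (adjusted p = 0.0678).

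**Figure D2:**
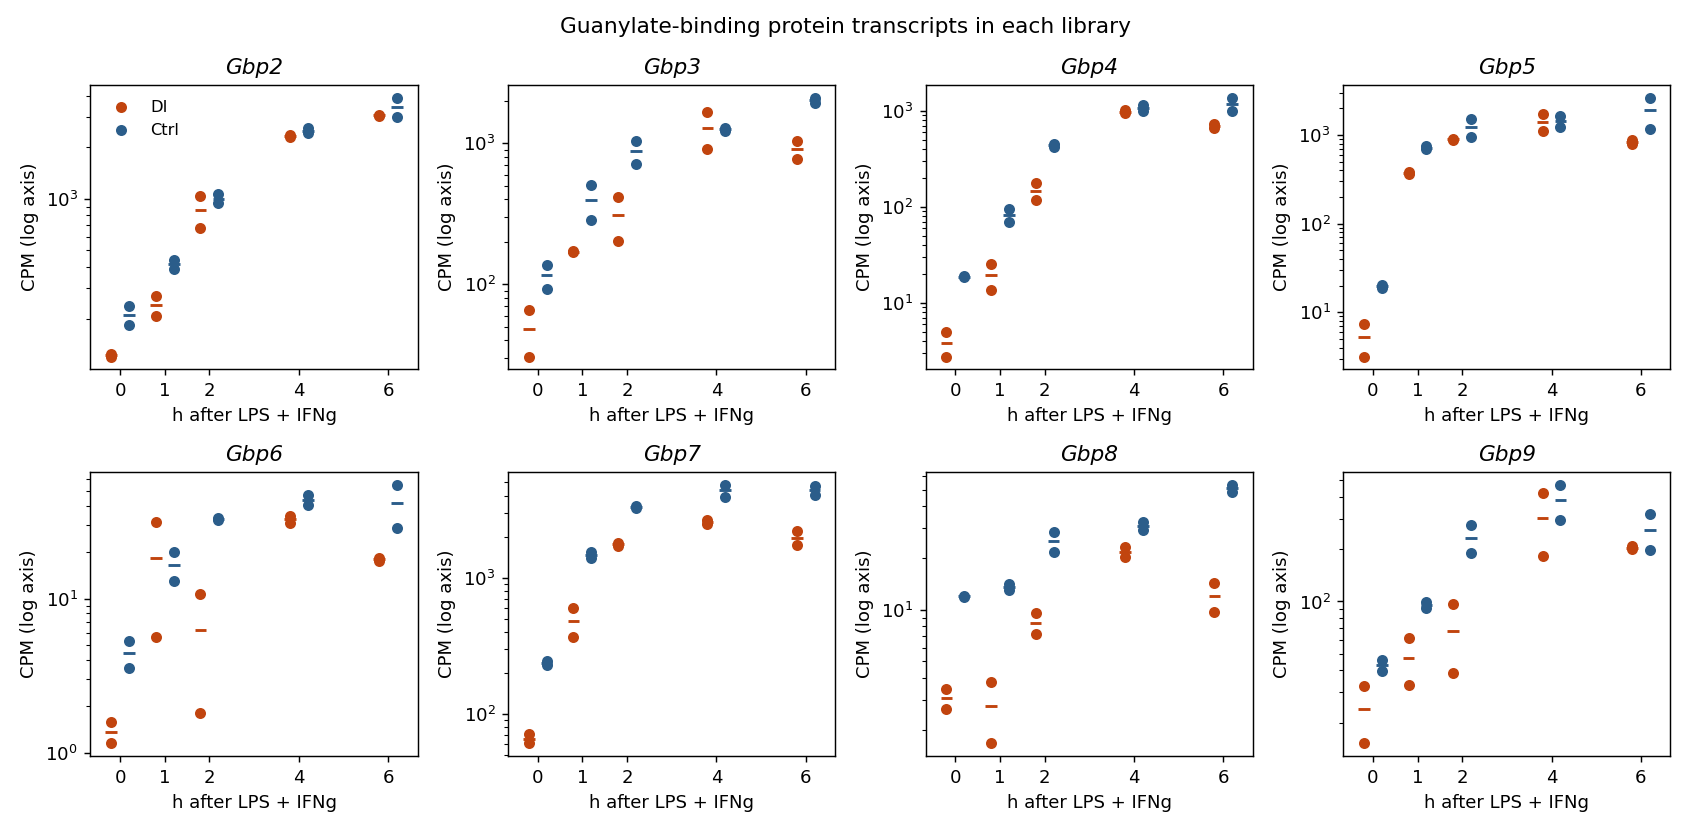
Level of each gene in every library, in CPM on a log axis, against hours after LPS and IFNg. DI libraries are orange and drawn left of the blue Ctrl libraries of the same time, with a bar at the mean of the 2 libraries. DI points lie below Ctrl points at 0 h for all 8 genes, as for 26.7% of all genes tested. At 4 h they overlap Ctrl points for Gbp3, Gbp4, Gbp5 and Gbp9 and lie below them for Gbp2, Gbp6, Gbp7 and Gbp8. The share of all genes that lie below at 4 h was not counted.

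The second comparison asks how the stimulus moved the genes within each treatment. The genes rose in both. In DI 6, 7, 8 and 8 of the 8 genes were called higher at 1, 2, 4 and 6 h than at 0 h, where 3.29, 7.89, 11.4 and 11.2% of all genes were called higher. In Ctrl 5, 7, 8 and 8 were called higher, where 3.65, 9.13, 14.7 and 15.2% of all genes were. None was called lower at any time in either treatment, where 0.3, 3.09, 7.34 and 8.91% of all genes were called lower in DI and 0.422, 3.09, 9.58 and 11.3% in Ctrl. The median log2 fold change over 0 h at these times was 2.10, 2.74, 4.65 and 4.44 in DI and 1.84, 2.90, 3.51 and 4.08 in Ctrl, while the median of all genes lay between −0.12 and 0.02 in DI and between −0.17 and −0.03 in Ctrl. The count in Ctrl at 1 h was 3 without replicate 2 of Ctrl at 0 h and 3 without replicate 2 of Ctrl at 1 h, and the counts at 4 and 6 h stayed at 7 or 8 without any single library.

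At 1 h Gbp2, Gbp3, Gbp4, Gbp5 and Gbp7 were called higher than at 0 h in both treatments, and Gbp6 in DI only. Gbp6 had 28 and 224 reads in DI libraries at 1 h and 9 and 10 reads at 0 h. Its rise in Ctrl was 1.89 ± 0.60 (adjusted p = 0.0895), and the difference between its responses, 1.88 ± 0.91, was not called. Of the 8 genes Gbp5 rose the most at 1 h. Its libraries held 368 and 385 CPM in DI and 698 and 744 CPM in Ctrl at 1 h, which is 68.3 times its own 0 h level in DI (6.09 ± 0.44 on the log2 scale) and 36.7 times that in Ctrl (5.20 ± 0.41). Its DI libraries were below its Ctrl libraries at 1 h, although the difference of −0.94 ± 0.34 was not called (adjusted p = 0.132). Gbp7 rose by 2.88 ± 0.27 in DI and 2.63 ± 0.27 in Ctrl at 1 h on the log2 scale. Gbp4 rose by 2.38 ± 0.36 in DI and 2.13 ± 0.31 in Ctrl at 1 h. Its level at 4 h was 1021 and 949 CPM in DI libraries and 1007 and 1147 CPM in Ctrl libraries, and the groups overlapped. Relative to 0 h the 4 h level was a log2 fold change of 8.03 ± 0.41 in DI and 5.84 ± 0.36 in Ctrl.

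Gbp2 had its highest mean at 6 h in both treatments. It held 3099 and 3054 CPM in DI libraries and 3889 and 2988 CPM in Ctrl libraries at 6 h, with overlap, and its log2 fold change over 0 h was 4.66 ± 0.29 in DI and 4.03 ± 0.29 in Ctrl. Gbp7 rose by 5.29 ± 0.30 in DI and 4.20 ± 0.28 in Ctrl at 4 h on the log2 scale. Gbp8 was slow, with −0.21 ± 0.46 in DI and 0.18 ± 0.38 in Ctrl at 1 h, neither called, and at 4 h it was up by 2.81 ± 0.43 in DI and 1.35 ± 0.38 in Ctrl. Gbp3, Gbp6 and Gbp9 had risen by 4.73 ± 0.44, 4.58 ± 0.71 and 3.65 ± 0.48 in DI and by 3.44 ± 0.41, 3.29 ± 0.62 and 3.16 ± 0.46 in Ctrl at 4 h.

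Taken step by step, 5 genes were called higher at 2 h than at 1 h in DI, namely Gbp2, Gbp4, Gbp5, Gbp7 and Gbp8 (2.81% of all genes). In Ctrl 3 were, Gbp2, Gbp4 and Gbp7 (2.9%). For this step 7 genes had an unadjusted p under 0.05 in DI (19.3% of all genes), with Gbp6 lower at 2 h (−1.56 ± 0.62), and 7 in Ctrl (12.8%). Whether this step differed between the treatments was not tested. Between 2 and 4 h 6 genes were called higher in DI, namely Gbp2, Gbp3, Gbp4, Gbp6, Gbp8 and Gbp9 (3.15% of all genes), and 2 in Ctrl, Gbp2 and Gbp4 (3.09%). For that step 7 genes had an unadjusted p under 0.05 in DI (21.4% of all genes) and 2 in Ctrl (17.2%). Between 4 and 6 h edgeR called 0 of the 8 genes in either treatment (1% of all genes were called in DI and 0.525% in Ctrl), with 2 genes at an unadjusted p under 0.05 in DI and 0 in Ctrl, where 15.9% of all genes had one in DI and 8.66% in Ctrl. Other tools were not run on the steps.

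**Figure D3:**
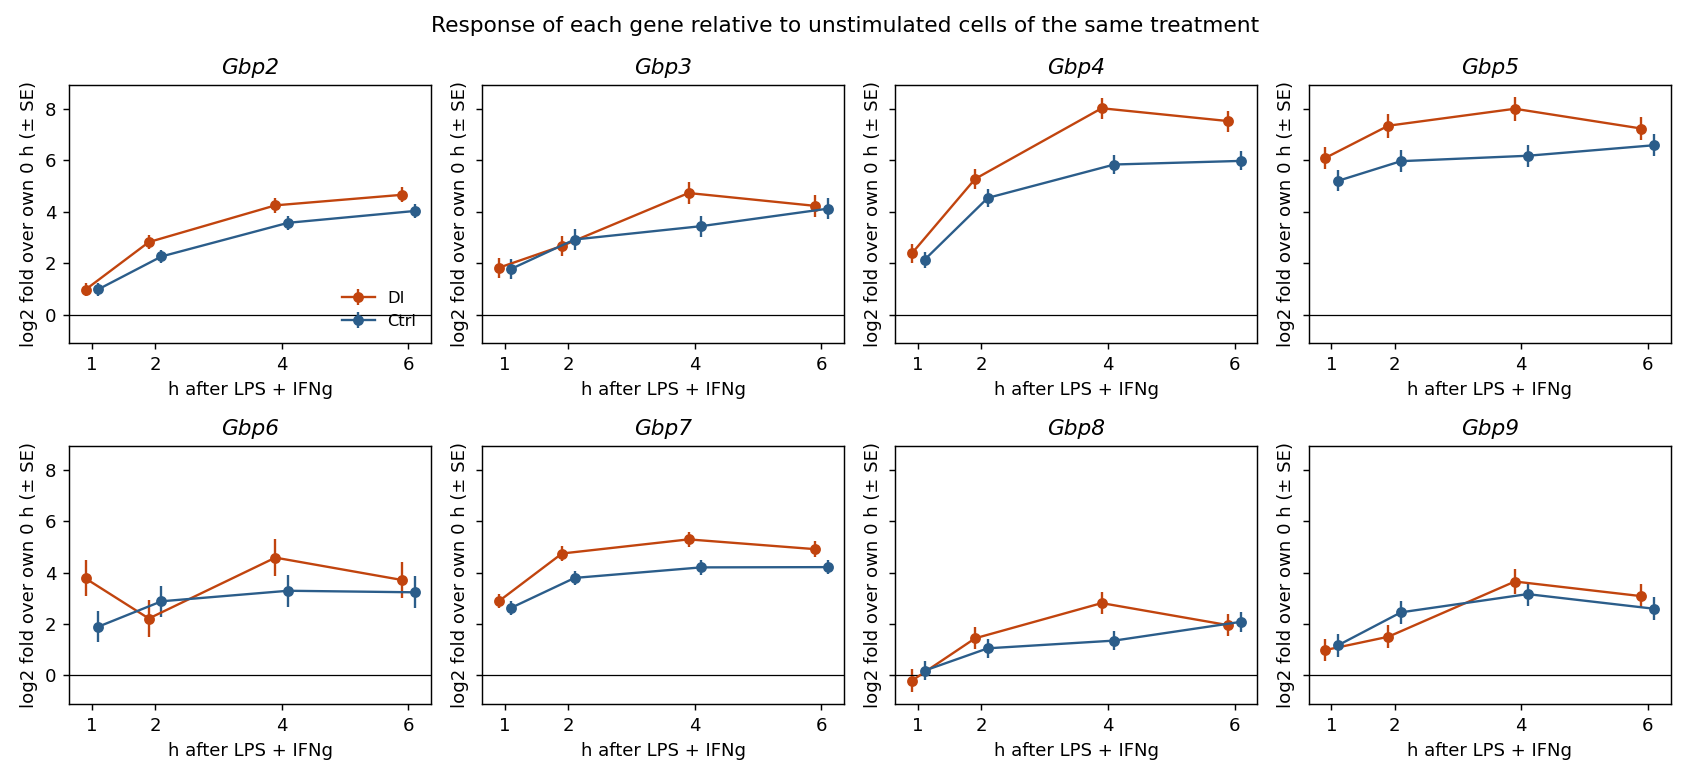
Log2 fold change of each gene at 1, 2, 4 and 6 h over 0 h cells of the same treatment, with bars of 1 SE from edgeR, in DI (orange) and Ctrl (blue). The DI line lies above the Ctrl line at 4 h for all 8 genes, by 0.49 to 2.19, and only for Gbp4 was that difference called.

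The third comparison asks whether stimulated DI cells differed from stimulated Ctrl cells. At 1 h 3 genes were called lower in DI (3.03% of all genes were), at 2 h 6 genes (3.97%), at 4 h 0 genes (6%) and at 6 h 4 genes (8.95%). An unadjusted p under 0.05 was found for 7, 6, 1 and 6 of the 8 genes at these times, beside 15.9, 20.3, 23.4 and 26.2% of all genes. None was called higher at these times, where 1.86, 2.27, 3.43 and 5.24% of all genes were. The median log2 fold change of the 8 genes was −1.11, −1.54, −0.23 and −1.15 at 1, 2, 4 and 6 h, beside 0.00, −0.03, −0.06 and −0.03 over all genes.

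At 1 h Gbp4, Gbp7 and Gbp8 were called lower in DI. Gbp3 had 168 and 173 CPM in DI libraries against 285 and 509.9 CPM in Ctrl libraries (−1.22 ± 0.38, adjusted p = 0.0646). edgeR did not call Gbp3 at 1 h, while the DESeq2 Wald test called it lower. Gbp7 had 601 and 364 CPM in DI libraries against 1546 and 1388 CPM in Ctrl libraries, without overlap (−1.60 ± 0.26, adjusted p = 0.000207). Gbp4 had 25.7 and 13.8 CPM in DI libraries against 70.2 and 95 CPM in Ctrl libraries (−2.08 ± 0.32, adjusted p = 0.000121). The lower Ctrl library of Gbp4 was well above the higher DI library. Gbp8 had 3.82 and 1.67 CPM in DI libraries, from 19 and 12 reads, against 13.1 and 14.1 CPM in Ctrl libraries (−2.34 ± 0.43, adjusted p = 0.00109). Without replicate 2 of DI at 1 h the value of Gbp8 was −1.84 (adjusted p = 0.0623) and 2 genes were called. Gbp6 had 5.63 and 31.2 CPM in DI libraries against 12.9 and 19.9 CPM in Ctrl libraries at 1 h, so that its DI libraries lay on both sides of Ctrl. Its difference was 0.18 ± 0.57, and it was −1.56 without replicate 2 of DI.

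At 2 h the called genes were Gbp3, Gbp4, Gbp6, Gbp7, Gbp8 and Gbp9. Gbp4 had 177 and 117 CPM in DI libraries against 454 and 424 CPM in Ctrl libraries, without overlap (−1.58 ± 0.30, adjusted p = 0.00158). Gbp9 had 97.1 and 38.7 CPM in DI libraries against 190.3 and 276 CPM in Ctrl libraries (−1.78 ± 0.44, adjusted p = 0.0151). Both DI libraries were lower, replicate 2 by far the more. Gbp3 had 415 and 202 CPM in DI libraries against 714 and 1039 CPM in Ctrl libraries, with the same order of the DI libraries (−1.51 ± 0.38, adjusted p = 0.0167). The values were −0.90 ± 0.25 for Gbp7 (adjusted p = 0.0327), −1.57 ± 0.40 for Gbp8 (adjusted p = 0.0176) and −2.37 ± 0.62 for Gbp6 (adjusted p = 0.0217). The DI libraries of Gbp6 held 47 and 7 reads.

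The count at 2 h rested on single libraries. It was 0 without replicate 2 of DI, 4 without replicate 1 of DI, 3 without replicate 1 of Ctrl and 2 without replicate 2 of Ctrl, and 1 in a fit of the 2 groups alone. Replicate 2 of DI is among the 3 libraries with the most genes at 0, the others being replicate 2 of DI at 4 and 6 h, and without all 3 the count was 1. Without replicate 2 of DI at 2 h the log2 fold changes were −1.09 for Gbp3, −1.32 for Gbp4, −1.62 for Gbp6, −0.86 for Gbp7, −1.78 for Gbp8 and −1.27 for Gbp9, with adjusted p of 0.0602 to 0.247. Gbp2 and Gbp5 were not called at 2 h (−0.22 ± 0.25 and −0.46 ± 0.34).

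At 4 h edgeR called 0 of the 8 genes, and 1 gene, Gbp7, had an unadjusted p under 0.05, as did 23.4% of all genes. Gbp7 had 2632 and 2490.4 CPM in DI libraries against 3915 and 4812 CPM in Ctrl libraries, still without overlap (−0.77 ± 0.25, adjusted p = 0.0541). The DESeq2 Wald test, limma-voom and limma-voom with quality weights each called 1 gene, again Gbp7. Gbp3 had 1672 and 904 CPM in DI libraries against 1292 and 1222 CPM in Ctrl libraries, with the Ctrl libraries between the DI libraries (0.03 ± 0.37). Gbp5 had 1732 and 1106 CPM in DI libraries against 1625 and 1225 CPM in Ctrl libraries, again enclosed by the DI libraries (−0.01 ± 0.34). The remaining values ran from −0.50 ± 0.38 for Gbp8 to −0.11 ± 0.25 for Gbp2. These errors leave room for differences in either direction for most of the genes.

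At 6 h Gbp3, Gbp5, Gbp7 and Gbp8 were called lower in DI. Gbp8 had 9.66 and 14.4 CPM in DI libraries against 48.3 and 53.5 CPM in Ctrl libraries (−2.09 ± 0.40, adjusted p = 0.000653), and both DI libraries were far below both Ctrl libraries. Gbp7 had 1722 and 2212 CPM in DI libraries against 4705 and 4043 CPM in Ctrl libraries, without overlap (−1.15 ± 0.25, adjusted p = 0.00261). Gbp5 had 871 and 791 CPM in DI libraries against 2623 and 1162 CPM in Ctrl libraries (−1.19 ± 0.34, adjusted p = 0.02). The Ctrl libraries of Gbp5 lay far apart, and without Ctrl replicate 1 its value was −0.49 (adjusted p = 0.539). Gbp3 had 779 and 1036 CPM in DI libraries against 2099 and 1932 CPM in Ctrl libraries, without overlap (−1.15 ± 0.38, adjusted p = 0.0416). Leaving out any of the 4 libraries at 6 h ended the call of Gbp3 (−1.38 to −0.97). The count at 6 h was 2 without replicate 1 of Ctrl and 2 without either DI library, and in each of these fits Gbp7 and Gbp8 were the genes called.

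edgeR called Gbp2 at none of the 5 times, with differences of −0.80 to −0.11. Gbp2 was called lower at 1 h by DESeq2 (adjusted p = 0.0111), with TMM factors from genes of at least 32 CPM (adjusted p = 0.0479) and without the 3 libraries with the most genes at 0 (adjusted p = 0.0494). Gbp7 was called at 0, 1, 2 and 6 h and Gbp8 at the same times, while Gbp4 was called at 0, 1 and 2 h. At 6 h Gbp4 had 672 and 728 CPM in DI libraries against 1371 and 1011 CPM in Ctrl libraries (−0.77 ± 0.30, adjusted p = 0.0875). limma-voom and DESeq2 called it lower at that time. Whether the genes differed from each other in the effect of dimethyl itaconate was not tested. Summed over the 8 genes, the level was 243 and 304 CPM in DI libraries against 721 and 599 CPM in Ctrl libraries at 0 h. It was 9883 and 7975 CPM in DI libraries against 10820 and 11352 CPM in Ctrl libraries at 4 h, and 7378 and 8053 CPM in DI libraries against 15110 and 11416 CPM in Ctrl libraries at 6 h. DI libraries were lower at each of these times and closest to Ctrl at 4 h.

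**Figure D4:**
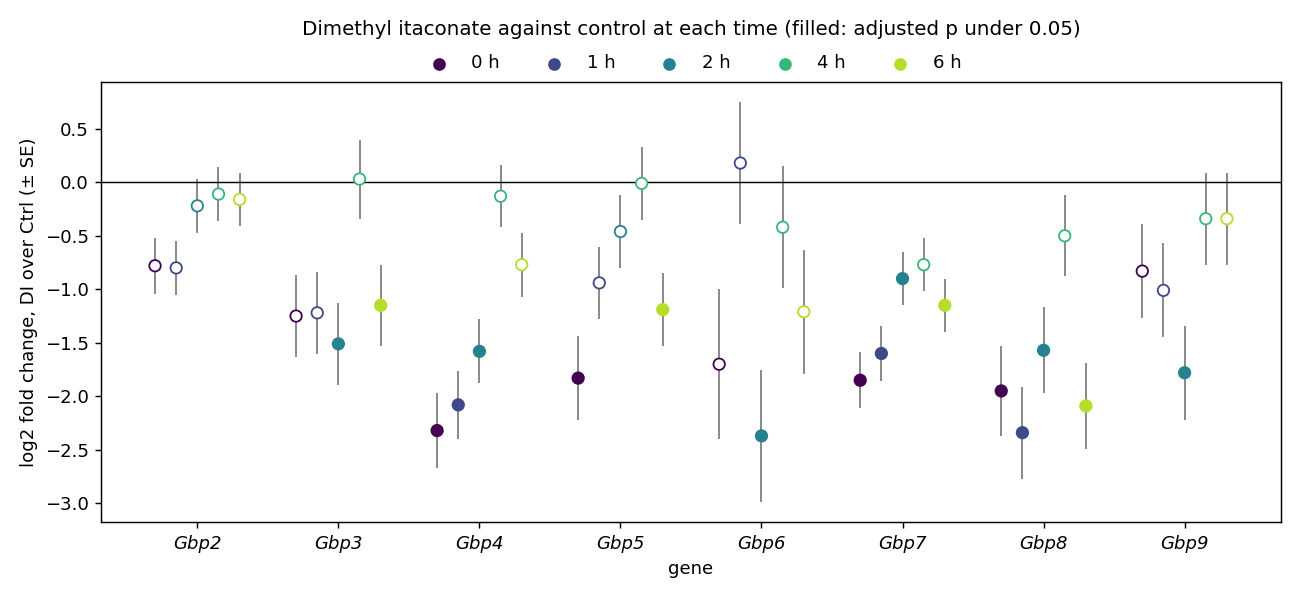
Log2 fold change of DI over Ctrl for each gene at 0, 1, 2, 4 and 6 h, coloured by time, with bars of 1 SE from edgeR. Filled points have an adjusted p under 0.05. All filled points lie below 0, and no point at 4 h is filled.

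The difference between the responses themselves was then tested, as the DI change since 0 h minus the Ctrl change since 0 h. All 8 genes had a positive difference at 4 h, from 0.49 to 2.19 on the log2 scale with a median of 1.29, beside −0.02 over all genes. Of these, 1 was called, where 0.188% of all genes were called higher and 0.76% in either direction. It was Gbp4, whose response was 2.19 ± 0.46 greater in DI (adjusted p = 0.015), with a 0 h level that was lower in DI and a 4 h level that overlapped Ctrl. The call of Gbp4 was lost with both limma-voom fits and without any 1 of 5 libraries. Its adjusted p was 0.0597 and 0.0557 without replicates 1 and 2 of Ctrl at 0 h, 0.0969 and 0.0605 without replicates 1 and 2 of Ctrl at 4 h, and 0.101 without replicate 2 of DI at 0 h. The difference stayed between 1.80 and 2.63 in every alternative. Gbp5 had a difference of 1.83 ± 0.51 at 4 h (adjusted p = 0.111). At 1, 2 and 6 h edgeR called 0 of the 8 genes, where 0.253, 0.356 and 1.55% of all genes were called in either direction. The genes with an unadjusted p under 0.05 numbered 1, 2 and 1, beside 4.86, 7.55 and 11.2% of all genes. Both limma-voom fits called 0 at these times, and DESeq2 called 0 at 1 and 2 h and 1 at 6 h. At 6 h the difference was 1.55 ± 0.46 for Gbp4 (adjusted p = 0.0958). These contrasts share the 0 h libraries with each other and with the first comparison.

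The values of several genes were farther apart at 6 h than at 4 h. Gbp8 had 20.2 and 23.3 CPM in DI libraries at 4 h and 9.66 and 14.4 CPM at 6 h, while it had 32.5 and 29 CPM in Ctrl libraries at 4 h and 48.3 and 53.5 CPM at 6 h. The DI values were lower at 6 h than at 4 h and the Ctrl values higher, with no overlap between the times in either treatment. The contrast of this step, and that of the step from 2 to 4 h, were added after the values had been seen. The DI change minus the Ctrl change from 4 to 6 h was −1.59 ± 0.55 for Gbp8 (adjusted p = 0.379), −1.19 ± 0.53 for Gbp3 (adjusted p = 0.519) and −1.18 ± 0.48 for Gbp5 (adjusted p = 0.489). edgeR called 0 of the 8 genes in this contrast, where 0.0281% of all genes were called, and 3 genes had an unadjusted p under 0.05, beside 8.77% of all genes. For the step from 2 to 4 h it called 0 of the 8 (0.141% of all genes) and 4 had an unadjusted p under 0.05, beside 11.3% of all genes, with values from 0.11 ± 0.36 for Gbp2 to 1.95 ± 0.83 for Gbp6. For the step from 2 to 6 h it called 0 of the 8 (0.619%), with 1 gene at an unadjusted p under 0.05, Gbp9 at 1.44 ± 0.61, beside 11.8% of all genes. Other tools were not run on these contrasts.

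The order of the 10 group means, from low to high, differed between the genes. Gbp7 ran from DI at 0 h (65.6 CPM) through Ctrl at 0 h (237), DI at 1 h (483), Ctrl at 1 h (1467), DI at 2 h (1758), DI at 6 h (1967), DI at 4 h (2561), Ctrl at 2 h (3273) and Ctrl at 4 h (4364) to Ctrl at 6 h (4374). All DI groups of Gbp7 stood below Ctrl at 2 h. In that order DI at 2 and 6 h overlapped, as did Ctrl at 4 and 6 h, and the other neighbours did not. Gbp4 ran from DI at 0 h (3.86 CPM) through Ctrl at 0 h (18.8), DI at 1 h (19.8), Ctrl at 1 h (82.6), DI at 2 h (147), Ctrl at 2 h (439), DI at 6 h (699.8), DI at 4 h (985) and Ctrl at 4 h (1077) to Ctrl at 6 h (1191). Its overlapping neighbours were Ctrl at 0 h with DI at 1 h and the last 3 groups in turn. Gbp2 followed the times, with DI below Ctrl at each time: DI at 0 h had 122 CPM, Ctrl at 0 h 210.3, DI at 6 h 3076 and Ctrl at 6 h 3438, and its overlapping neighbours were DI with Ctrl at 2 and 6 h and Ctrl at 0 h with DI at 1 h. Gbp5 was lowest in DI at 0 h (5.34 CPM) and highest in Ctrl at 6 h (1893), with its last 4 groups overlapping in turn. Gbp3 was lowest in DI at 0 h (48.2) and highest in Ctrl at 6 h (2016), and Gbp8 was lowest in DI at 1 h (2.75), which overlapped DI at 0 h, and highest in Ctrl at 6 h (50.9). Gbp6 and Gbp9 were lowest in DI at 0 h (1.37 and 23.9 CPM) and highest in Ctrl at 4 h (43.5 and 383), where most neighbours overlapped.

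Over the 10 group means of log2 CPM the 28 pairs of the 8 genes had Pearson correlations of 0.622 to 0.983, with a median of 0.887. Gbp3 was closest to the mean profile of the 8 genes (0.996) and Gbp8 farthest from it (0.861). Other genes that averaged 20 CPM or more were ranked by likeness, with genes without a symbol and predicted genes (Gm or Rik names) left out. Among these 4955 genes, those with the profile most like the mean of the 8 were Cd40 (0.99), Enpp4 (0.986), Upp1 (0.983), Cmpk2 (0.981), Slc7a2 (0.98) and Rsad2 (0.98). These points share the 10 groups and their libraries, and the values describe likeness only.

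The pathway upstream of the genes was read from lists by role. At 0, 1, 2, 4 and 6 h 2.17, 3.03, 3.97, 6 and 8.95% of all genes were called lower in DI and 1.43, 1.86, 2.27, 3.43 and 5.24% higher, and 13.9, 15.9, 20.3, 23.4 and 26.2% had an unadjusted p under 0.05. Of 4 IFNg receptor subunits and kinases, 0 were called at 0 and 1 h (0 and 1 had an unadjusted p under 0.05), and 1 was lower in DI at each of 2, 4 and 6 h. Ifngr1, the ligand-binding receptor chain, had 63.1 and 65.5 CPM in DI libraries against 136 and 177 CPM in Ctrl libraries at 2 h, without overlap (−1.28 ± 0.32, adjusted p = 0.0159). Ifngr2, the other receptor chain, was between −0.78 and −0.13 and not called at any time. Jak2, a kinase bound to the receptor, was lower at 4 h (−1.33 ± 0.34) and 6 h (−1.17 ± 0.34).

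Transcription factors that act at promoters of this kind were compared next. Irf1, an interferon regulatory factor, had 3076 and 3839 CPM in DI libraries against 2878 and 2396 CPM in Ctrl libraries at 2 h, and it was not called at any time (−0.24 to 0.39, SE 0.26 to 0.27). Irf8, a myeloid interferon regulatory factor, had 4122 and 4481 CPM in DI libraries against 9711 and 12757 CPM in Ctrl libraries at 4 h. It was lower at 4 h (−1.38 ± 0.32) and 6 h (−1.72 ± 0.32). Stat2, a factor of type I interferon signalling, was lower at 6 h (−1.17 ± 0.34).

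Of 5 genes listed as inhibitors, not all of which act on IFNg signalling itself, 0 were called at 0 and 1 h (2 and 1 had an unadjusted p under 0.05). Socs1, which blocks the Janus kinases, had 1108 and 1192 CPM in DI libraries against 559 and 709 CPM in Ctrl libraries at 2 h, and was higher in DI at that time only among the 5 times tested (0.86 ± 0.25, adjusted p = 0.0389). Usp18, which restrains the type I interferon receptor, was lower at 2, 4 and 6 h (−1.19 ± 0.29, −1.69 ± 0.29 and −2.05 ± 0.30). Socs3, a brake on STAT3 signalling, was lower at 4 h (−1.20 ± 0.36) and 6 h (−1.79 ± 0.37). Of 7 genes of the type I interferon branch, Ifnb1, which encodes interferon beta, had 1.41 and 1.39 CPM in DI libraries against 15.3 and 19 CPM in Ctrl libraries at 1 h (−3.60 ± 0.83, adjusted p = 0.00937). Tlr4, the LPS receptor, was higher in DI at 6 h (1.02 ± 0.33). No other gene of that list was called at the 5 times, and Ifnb1 was called at 1 h only. An unadjusted p under 0.05 was found for 1, 1, 2, 4 and 3 of the 7 genes at 0, 1, 2, 4 and 6 h. Ifnb1 had 17.2 and 6.97 CPM in DI libraries against 56.4 and 65 CPM in Ctrl libraries at 2 h. At 4 h it had 8.54 and 5.83 CPM in DI libraries against 22.5 and 46.4 CPM in Ctrl libraries, and at 6 h the groups overlapped.

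**Figure D5:**
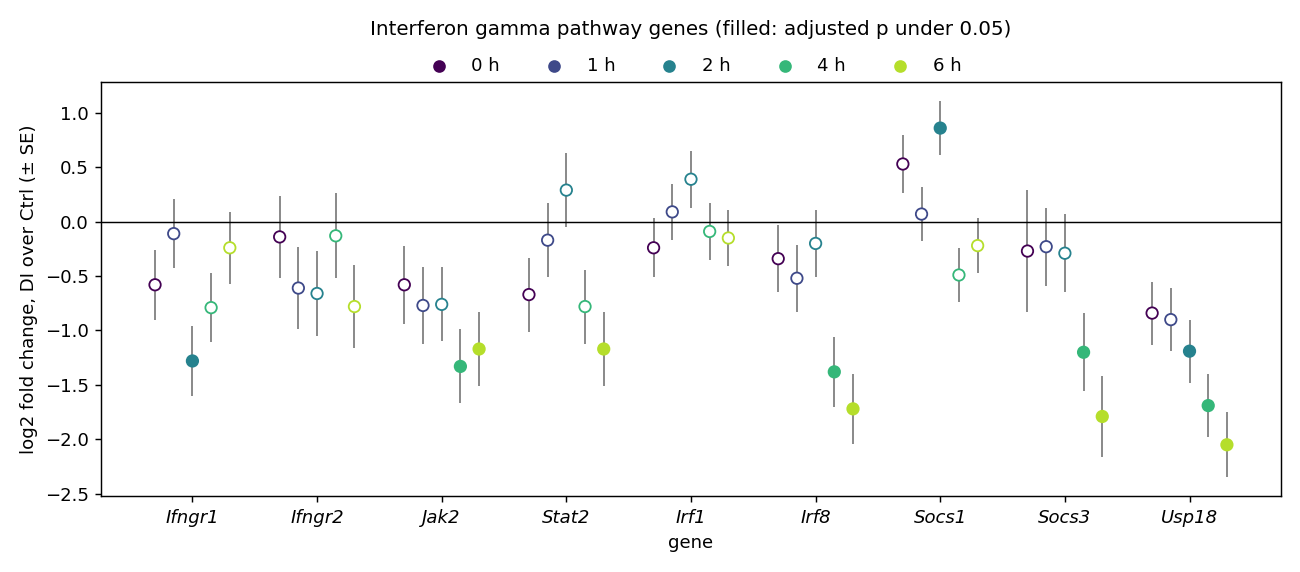
Log2 fold change of DI over Ctrl at 0, 1, 2, 4 and 6 h, coloured by time, with bars of 1 SE from edgeR. The genes come from the lists of receptor, kinase, transcription factor and inhibitor genes. Among them Stat2 and Usp18 act in type I interferon signalling, and Socs3 is a brake on STAT3 signalling. Filled points have an adjusted p under 0.05. Irf8 is filled below 0 at 4 and 6 h, Irf1 is not filled at any time, and Socs1 is filled above 0 at 2 h.

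The immunity-related GTPases, which work with the guanylate-binding proteins on vacuoles, were tested as 8 of 9 listed genes. In DI 4 were lower at 0 h, 1 at 1 h and 0 at 2, 4 and 6 h, where edgeR found 1, 2 and 1 with an unadjusted p under 0.05. Of all genes 2.17, 3.03, 3.97, 6 and 8.95% were called lower at the 5 times, and 20.3, 23.4 and 26.2% had an unadjusted p under 0.05 at 2, 4 and 6 h, so the counts at those 3 times are near or below the share of all genes. Other tools were not run on this and the other lists. The 4 at 0 h were Iigp1, Tgtp2, Ifi47 and Gm4951. Iigp1, a GTPase that breaks vacuole membranes, had 55.1 and 36.5 CPM in DI libraries against 276 and 261 CPM in Ctrl libraries at 0 h (−2.55 ± 0.29, adjusted p = 2.52e-06), and at 4 h it had 4699 and 5198 CPM in DI libraries against 5043 and 5751 CPM in Ctrl libraries. Its groups were far apart at 0 h and overlapped at 4 h. Ifi47 was lower at 0 h (−1.62 ± 0.30) and 1 h (−1.39 ± 0.30). The median of the 8 was −1.44 at 0 h and −0.21 at 6 h, while that of the guanylate-binding proteins was −1.77 and −1.15, and the difference between the families was not tested.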

How the data were processed

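Transcripts were measured in 20 libraries of mouse macrophages. The authors deposited raw counts per Ensembl gene, from 3′-end, strand-specific libraries primed with barcoded oligo-dT, pooled by Actb qPCR and amplified by PCR, per the labels' protocols. STAR, HTSeq, DESeq2 and mm10 (GRCm38) are named in the submitters' processing notes. Versions and options are not given in the sources used here. No molecular identifiers are named, so that PCR copies count as reads. Groups were taken from the labels, and each column was matched to 1 library by name.

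Of 22165 genes, 21745 matched a symbol in GENCODE M21. After filterByExpr by group, 10663 genes were fitted with edgeR 4.0.16 in R 4.3.3 (quasi-likelihood, robust, TMM scaling, 1 coefficient per group, all 20 libraries). Benjamini-Hochberg adjustment was made within each contrast over all genes tested. SE is the log2 fold change divided by the square root of F, and SD is over the 2 libraries. Likeness used log2 CPM with a prior count of 2. The fit was tested on simulated counts. Alternatives used limma 3.58.1 and DESeq2 1.42.0, other scalings and filters, a replicate block, and fewer libraries.

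All 8 genes are named whatever their values. Of each pathway list up to 4 genes with the smallest p are named, plus Irf1, Socs1, Ifngr1, Ifngr2, Nqo1 and Gclm. Aim2, Il18, Casp4, Casp1 and Gsdmd are named after their values were seen. The genes and lists were chosen with earlier results of these data known. A gene of the transcription factor list is not reported here, and the count over that list is left out.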

Additional observations from a re-analysis of the deposited data

Results flagged for a closer look

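One result of the comparison between treatments stood out. The response of Gbp4 to LPS and IFNg at 4 h was 2.19 ± 0.46 (SE, log2 scale, adjusted p = 0.015 by edgeR's quasi-likelihood test) greater in DI than in Ctrl. This is a difference in fold change over each treatment's own 0 h level, so it holds the lower 0 h level in DI. The log2 fold change of DI over Ctrl was −2.32 ± 0.35 at 0 h and −0.13 ± 0.29 at 4 h. Whether the rise in CPM differed was not tested. Gbp4 had 4.95 and 2.77 CPM in DI libraries against 19 and 18.6 CPM in Ctrl libraries at 0 h, and 1021 and 949 CPM in DI libraries against 1007 and 1147 CPM in Ctrl libraries at 4 h. The DI libraries at 0 h held 28 and 24 reads of it. Over 18 alternatives the adjusted p ran from 0.000427 to 0.17 and missed the threshold in 7 of them. Groups of 2 libraries are too small for a test of single libraries that stand apart.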

How the results depend on the processing

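The counts of called genes at each contrast were recomputed under 10 alternatives and without each library in turn. Where the count of genes lower in DI moved by more than 1.5 times, it was 2 with quality weights in limma-voom and 1 in a fit of the groups compared alone at 0 h. At 1 h it was 5 with TMM factors from genes of at least 32 CPM, 6 with no filter on low counts, 5 without 3 DI libraries (replicate 2 at 2, 4 and 6 h, those with the most genes lacking reads) and 5 with the DESeq2 Wald test. At 2 h it was 1 without those 3 libraries and 1 in a fit of the groups compared alone. At 4 h it was 1 with limma-voom, 1 with quality weights and 1 with DESeq2. The genes higher at 1 h than at 0 h in DI numbered 2 with quality weights. Response differences at 4 h numbered 2 with no filter, 2 with DESeq2 and 0 with either limma-voom fit, and at 6 h 1 with no filter and 1 with DESeq2. The other 152 counts lay within 1.5 times the reported count. The cause was not tested, except that fits of the groups alone and fits without libraries hold fewer libraries by construction.

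Without 1 library at a time the count of genes lower in DI ran from 2 to 5 at 0 h, 2 to 4 at 1 h, 0 to 4 at 2 h, 0 to 0 at 4 h and 2 to 3 at 6 h. Genes higher than at 0 h ran from 4 to 6, 5 to 7, 8 to 8 and 8 to 8 in DI at 1, 2, 4 and 6 h, and from 3 to 4, 6 to 7, 7 to 8 and 8 to 8 in Ctrl. Response differences ran from 0 to 0, 0 to 0, 0 to 1 and 0 to 1. A library left alone in its group is assumed to vary like the other groups. Calls lower in DI that held under all 14 alternatives tried for each were Gbp7 at 0 h, Gbp4 and Gbp7 at 1 h, and Gbp7 and Gbp8 at 6 h.

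Single values changed sign in 21 fits, none of them called in the fit reported. Gbp6 at 1 h was −0.16 with limma-voom, −0.17 with quality weights, −0.10 without Ctrl replicate 1 and −1.56 without DI replicate 2 (−1.56 to 0.92 without 1 library). Gbp2 at 2 h was 0.05 without DI replicate 2 and 0.05 without the 3 DI libraries (−0.57 to 0.05). At 4 h Gbp3 was −0.03 with limma-voom, −0.03 with quality weights, −0.01 without Ctrl replicate 2 and −0.48 without DI replicate 1 (−0.48 to 0.41). Gbp5 at 4 h was 0.10 with the 32 CPM factors, 0.01 with a filter at 5 CPM in 2 libraries, 0.28 without the 3 DI libraries, 0.07 in the groups alone, 0.21 without Ctrl replicate 1 and 0.28 without DI replicate 2 (−0.37 to 0.28). Gbp9 at 4 h was 0.13 without the 3 DI libraries, 0.03 without Ctrl replicate 1 and 0.13 without DI replicate 2 (−1.07 to 0.13). At 6 h Gbp2 and Gbp9 were 0.04 and 0.04 without Ctrl replicate 1 (−0.34 to 0.04 and −0.66 to 0.04).

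Scaling by the 32 CPM genes moved the median of all genes at 6 h from −0.027 to 0.115 for DI over Ctrl, and from −0.170 to −0.480 for Ctrl over 0 h. No pairing by replicate number was seen over the groups as a whole. Over 45 pairs of groups the correlation of deviations had a median of −0.0167 (−0.405 to 0.323), and 7 pairs were over 0.1. The labels do not say whether equal numbers mark a shared day, and pairing within some of the groups was not tested. With the replicate block the genes lower in DI numbered 4, 3, 6, 0 and 3 at 0, 1, 2, 4 and 6 h, where Gbp3 at 6 h had an adjusted p of 0.0532. The steps and the pathway lists were computed in the fit of all libraries only. Depth limits Gbp6 and Gbp8, which had as few as 7 and 12 reads in a library.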

Other observations

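Of 9 genes that act after the guanylate-binding proteins at inflammasomes, 1, 2, 5, 5 and 5 were called lower in DI at 0, 1, 2, 4 and 6 h, where 2.17, 3.03, 3.97, 6 and 8.95% of all genes were, and 1, 1, 1, 0 and 1 higher, where 1.43, 1.86, 2.27, 3.43 and 5.24% of all genes were. The median of their log2 fold changes was −0.87, −0.67, −1.29, −1.02 and −1.28, beside −0.05, 0.00, −0.03, −0.06 and −0.03 over all genes. Casp1 and Gsdmd, which encode caspase 1 and the pore protein gasdermin D, were called at none of the 5 times. Of the 9 genes, 6, 6, 7, 8 and 7 had an unadjusted p under 0.05 in edgeR at these times. That compares with 13.9, 15.9, 20.3, 23.4 and 26.2% of all genes, so the lack of a call does not show that a gene was unchanged. Pycard, which encodes the adaptor ASC, had 29.6 and 18.1 CPM in DI libraries against 160 and 162 CPM in Ctrl libraries at 6 h, without overlap (−2.75 ± 0.38, adjusted p = 1.73e-05), and was called at 2, 4 and 6 h. Il1b, the gene of interleukin 1 beta, had 137 and 93.6 CPM in DI libraries against 729 and 634 CPM in Ctrl libraries at 4 h (−2.56 ± 0.33, adjusted p = 1.44e-05). It was called at all 5 times and was the 1 gene counted lower at 0 h. At 0 h it had 0 and 0 CPM in DI libraries against only 1.28 and 2.92 CPM in Ctrl libraries. DI libraries held fewer genes at 1 to 3 reads, whose part in that call was not tested. Nlrp3, which encodes an inflammasome sensor, was called at 1, 2 and 4 h (−1.54 ± 0.26, −1.29 ± 0.26 and −1.02 ± 0.26). Il18, the gene of interleukin 18, was called at 2, 4 and 6 h, Aim2, a DNA sensor, at 2 and 6 h, and Casp4, the sensor caspase for LPS, at 4 and 6 h. The gene called higher was Ninj1, which encodes a protein of membrane rupture, with 356 and 274 CPM in DI libraries against 98.8 and 110.3 CPM in Ctrl libraries at 6 h (1.59 ± 0.30, adjusted p = 0.00051).

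Among 6 genes of protein prenylation, which anchors some guanylate-binding proteins to membranes, edgeR called 0 at each time, with 1, 0, 0, 0 and 2 at an unadjusted p under 0.05 at 0, 1, 2, 4 and 6 h, beside 13.9, 15.9, 20.3, 23.4 and 26.2% of all genes. Among 8 genes of the conjugation of ATG8 proteins, by which the GTPases find vacuoles, edgeR called 1 gene over the 5 times. It was Atg5, higher in DI at 4 h (1.12 ± 0.31, adjusted p = 0.0221). At the 5 times 1.43, 1.86, 2.27, 3.43 and 5.24% of all genes were called higher and 2.17, 3.03, 3.97, 6 and 8.95% lower. The counts of this list are thus near or below the share of all genes. Of the other family members, Gbp2b, which encodes the protein called GBP1 in mouse, had reads in 2 of 10 DI libraries, 1 each, and in 9 of 10 Ctrl libraries. It had 0 and 0 reads in DI libraries against 36 and 31 reads in Ctrl libraries at 6 h, and 1 and 0 reads in DI libraries against 21 and 31 reads in Ctrl libraries at 4 h. Gbp2b passed the filter on low counts only through the Ctrl groups in which it is high, so these counts are given without a test. DI libraries held fewer genes at 1 to 3 reads, whose part in them was not tested. Gbp10 had 0 to 18 reads in DI libraries and 0 to 15 reads in Ctrl libraries, and Gbp11 had 0 to 22 reads in DI libraries and 2 to 35 reads in Ctrl libraries, and neither was called between DI and Ctrl at any of the 5 times.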
